A study of Mus musculus with 19 samples.

Results

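The sirtuins and the enzymes that feed them with NAD were followed in small intestinal crypts of fed and fasted mice. The set was chosen by name and held 10 genes of the 55487 listed: the 7 sirtuins Sirt1 to Sirt7 and the 3 NAD synthesis genes Nampt, Naprt and Nmnat1. All 10 passed the filter on low counts, together with 17877 genes in all. RNA was sequenced from 19 C57BL/6 mice of both sexes, 10 to 16 weeks old, in 4 groups: 5 NT+/+ AL and 4 NT-/- AL mice with chow ad libitum, and 5 NT+/+ Fast and 5 NT-/- Fast mice that had only water for 48 hours. NT-/- mice lack the gene for neurotensin, a gut peptide hormone released after a fatty meal. The fed controls were littermates of the fasted mice, matched for sex and age. Crypts were released with EDTA from the small intestine without its distal part and were not sorted. The study describes its fed and fasted mice of both genotypes as carriers of an Lgr5-EGFP reporter allele and lists mice without it too, and the labels of the sequenced mice do not name the allele.

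Sirtuins are enzymes that remove acetyl and other acyl groups from proteins and use up a molecule of NAD each time, so their activity is tied to the supply of NAD in the cell. Sirt1, Sirt6 and Sirt7 are nuclear, Sirt2 is mainly cytoplasmic, and Sirt3, Sirt4 and Sirt5 are mitochondrial. The reaction leaves nicotinamide, which NAMPT, the rate-limiting enzyme of the salvage pathway, turns into nicotinamide mononucleotide. NAPRT starts the parallel route from nicotinic acid, and NMNAT1 makes NAD from the mononucleotides in the nucleus. SIRT1 and NAMPT are known for responses to fasting in several tissues, and both have been studied in intestinal stem cells and their Paneth cell neighbors.

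Library totals ranged from 9059457 to 35068711 counts, with NT-/- Fast-2 the lowest. Nts, the neurotensin gene, had 73 to 177 counts in the NT+/+ mice and 3 to 15 in the NT-/- mice. The mouse titled NT+/+ Fast-5 has a genotype entry of NT-/-, but its Nts count of 97 lay among the NT+/+ mice, and it was kept with its title. In NT+/+ AL-1 a single RNA, CT010467.1, took 11.55% of the counts, against at most 2.94% for the top gene of any other mouse. Of the markers of cells outside the epithelium, those of stroma and vessel summed to 1.97 to 7.94 CPM (counts scaled to a library of fixed size). Those of smooth muscle summed to 0.48 to 3.91 CPM and those of immune cells to 52.9 to 142 CPM. The 8 genes listed for crypt epithelium, among them the general epithelial genes Epcam, Cdh1 and Vil1, summed to 10431 to 19524 CPM. Markers of villus enterocytes, which are epithelial cells from above the crypt, summed to 2337 to 10340 CPM. Whether this RNA came from villus cells or from cells of the crypt was not tested.

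Per length, Naprt and Sirt7 were the most abundant of the 10 transcripts in fed NT+/+ crypts and Sirt5 the least. The deposited TPM values, which are transcript shares corrected for length, had a median over the 5 NT+/+ AL mice of 42.3 for Naprt and 35.7 for Sirt7. The medians were 16.9 TPM for Sirt2, 16.5 TPM for Nampt and 13.5 TPM for Sirt1. The remaining genes had medians of 9.44 TPM (Sirt6), 9.37 TPM (Sirt3), 7.94 TPM (Sirt4), 7.07 TPM (Nmnat1) and 5.14 TPM (Sirt5). Most neighbors in this order shared part of their range. Only 3 steps were free of overlap: Sirt7 (28.4 to 37.0 TPM) lay above Sirt2 (16.2 to 18.7 TPM), Nampt (14.9 to 19.1 TPM) above Sirt1 (8.83 to 14.6 TPM), and Nmnat1 (6.89 to 7.71 TPM) above Sirt5 (4.33 to 6.13 TPM). Naprt exceeded Sirt7 in 4 of 5 mice, the exception being NT+/+ AL-1 with 25.7 TPM.

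In both fasted groups 2 pairs of genes had exchanged places against NT+/+ AL. Nampt stood above Sirt2 in 5 of 5 NT+/+ Fast mice, with medians of 23.6 and 18.1 TPM, and in 5 of 5 NT-/- Fast mice, with medians of 29.3 and 19.3 TPM, while among the fed mice Sirt2 was the higher of the pair in 3 of 5 NT+/+ and 2 of 4 NT-/- mice. At the bottom, Sirt5 and Nmnat1 exchanged places: the Sirt5 median was 6.0 TPM against 5.21 TPM for Nmnat1 in NT+/+ Fast mice, and 6.58 against 6.05 TPM in NT-/- Fast mice, each with Sirt5 higher in 4 of 5 mice. Sirt6, Sirt3 and Sirt4 lay close together and changed order between groups: Sirt4 (8.39 TPM) had a higher median than Sirt3 (8.32 TPM) in NT+/+ Fast mice, though it was higher in 2 of 5 mice, and Sirt3 stood above Sirt6 in both NT-/- groups. These levels are descriptions, and no test was run between genes.

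**Figure D1:**
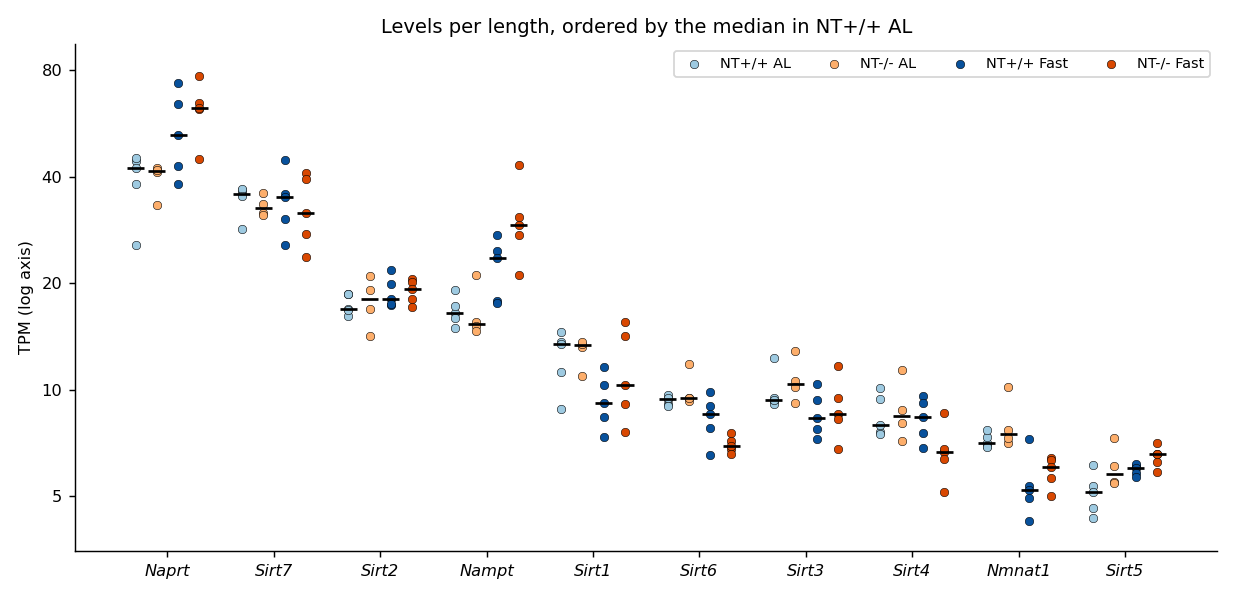
Levels of the 10 genes in TPM on a log axis, with 1 point per mouse, a bar at the group median and genes ordered by their median in NT+/+ AL mice. Naprt and Nampt had higher medians in both fasted groups than in the fed groups, and the sirtuins other than Sirt7 and Sirt2 lay between 4.33 and 15.5 TPM.

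A pair of promoters is printed because it belongs to the gene with the largest change, Nampt, and to the best known sirtuin, Sirt1. RefSeq promoter entries on GRCm38.p6 were matched for 9 of the 10 genes by symbol, Naprt being the tenth. The window runs from 250 to 21 bases before the start and so holds 230 bases. Capitals mark 5 words searched on both strands: the E-box CACGTG, the FOXO site GTAAACA, the CRE core TGACG, the GC box GGGCGG and the CCAAT box CCAAT. The Nampt window lies on the plus strand at chr12:32820085-32820314 and, in GENCODE, inside an intron of a longer Nampt transcript, and the Sirt1 window lies on the minus strand at chr10:63339056-63339285, likewise inside an intron of a longer Sirt1 transcript.
Nampt: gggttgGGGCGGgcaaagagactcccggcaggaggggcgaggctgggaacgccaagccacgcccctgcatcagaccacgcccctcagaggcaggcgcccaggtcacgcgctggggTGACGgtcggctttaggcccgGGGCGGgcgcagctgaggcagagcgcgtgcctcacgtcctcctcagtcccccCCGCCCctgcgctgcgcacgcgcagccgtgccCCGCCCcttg
Sirt1: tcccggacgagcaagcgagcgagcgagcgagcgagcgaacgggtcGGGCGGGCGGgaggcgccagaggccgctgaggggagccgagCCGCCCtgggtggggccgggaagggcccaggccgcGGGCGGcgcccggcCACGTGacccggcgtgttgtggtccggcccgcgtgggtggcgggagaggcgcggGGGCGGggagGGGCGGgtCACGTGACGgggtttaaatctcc
The Nampt window held 4 GC boxes and 1 CRE core and no E-box. The Sirt1 window held 6 GC boxes, of which a pair overlap, and 2 E-boxes, of which the 1 nearer the start shares its last bases with a CRE core. Of all 32851 promoter windows of this length, 5.35% held the E-box, 15.9% the CRE core, 29.8% the GC box, 32.2% CCAAT and 2.91% the FOXO site. Among the 12 windows of the 9 genes, 1 held an E-box, 3 a CRE core, 8 a GC box, 4 CCAAT and 0 the FOXO site. G and C made up 74.8% of the Nampt window and 78.3% of the Sirt1 window, against a median of 51.7%. These are matches of letters, and the expression data do not show what binds there.

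On GRCm38, Nampt lies on the plus strand of chromosome 12 (32819545 to 32853349), and Naprt on chromosome 15 (75890956 to 75894481), Nmnat1 on chromosome 4 (149467572 to 149485202), Sirt1 on chromosome 10 (63319005 to 63381704) and Sirt6 on the same chromosome (81621785 to 81627797) lie on the minus strand.

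Fasting gave calls for 3 of the 3 NAD synthesis genes in both genotypes in the main test, which had no block. Of the 7 sirtuins 0 passed in NT+/+ mice, beside 21.6% of all genes, and 1 in NT-/- mice, beside 25.1%. So short a list does not set the sirtuins apart from all genes. With same-numbered mice as a block in edgeR, Sirt1 passed too, in NT+/+ mice. Its adjusted p was 0.0349 by title number (28.0% of all genes called) and 0.0238 by file-name number (30.7%). In NT+/+ mice 3 of the 10 genes passed an adjusted p of 0.05 in edgeR's quasi-likelihood test, against 21.6% of all genes tested. Nampt and Naprt were higher (11.2% of all genes were called higher) and Nmnat1 was lower (10.4% were called lower). In NT-/- mice 4 of the 10 passed, against 25.1% of all genes: Nampt and Naprt were higher (12.5%) and Sirt6 and Nmnat1 were lower (12.6%). The median log2 fold change of the 10 genes was 0.01 in NT+/+ and -0.08 in NT-/- mice, beside -0.01 and -0.02 over all genes tested. Fed and fasted mice did not overlap for 1 of the 10 genes in NT+/+ (Naprt, 14.6% of all genes) and for 4 of the 10 in NT-/- mice (Sirt6, Nampt, Naprt and Nmnat1, 21.3% of all genes). Without NT-/- Fast-2 these calls did not change. Without NT+/+ Fast-5 or NT+/+ AL-1 the count in NT+/+ mice was again 3, but the genes differed, as Nmnat1 no longer passed (adjusted p = 0.0572 and 0.0837) and Sirt1 did (0.0357 and 0.0471). RNA was measured in bulk, so fewer cells of a type and less RNA per cell cannot be told apart in any of these values.

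**Figure D2:**
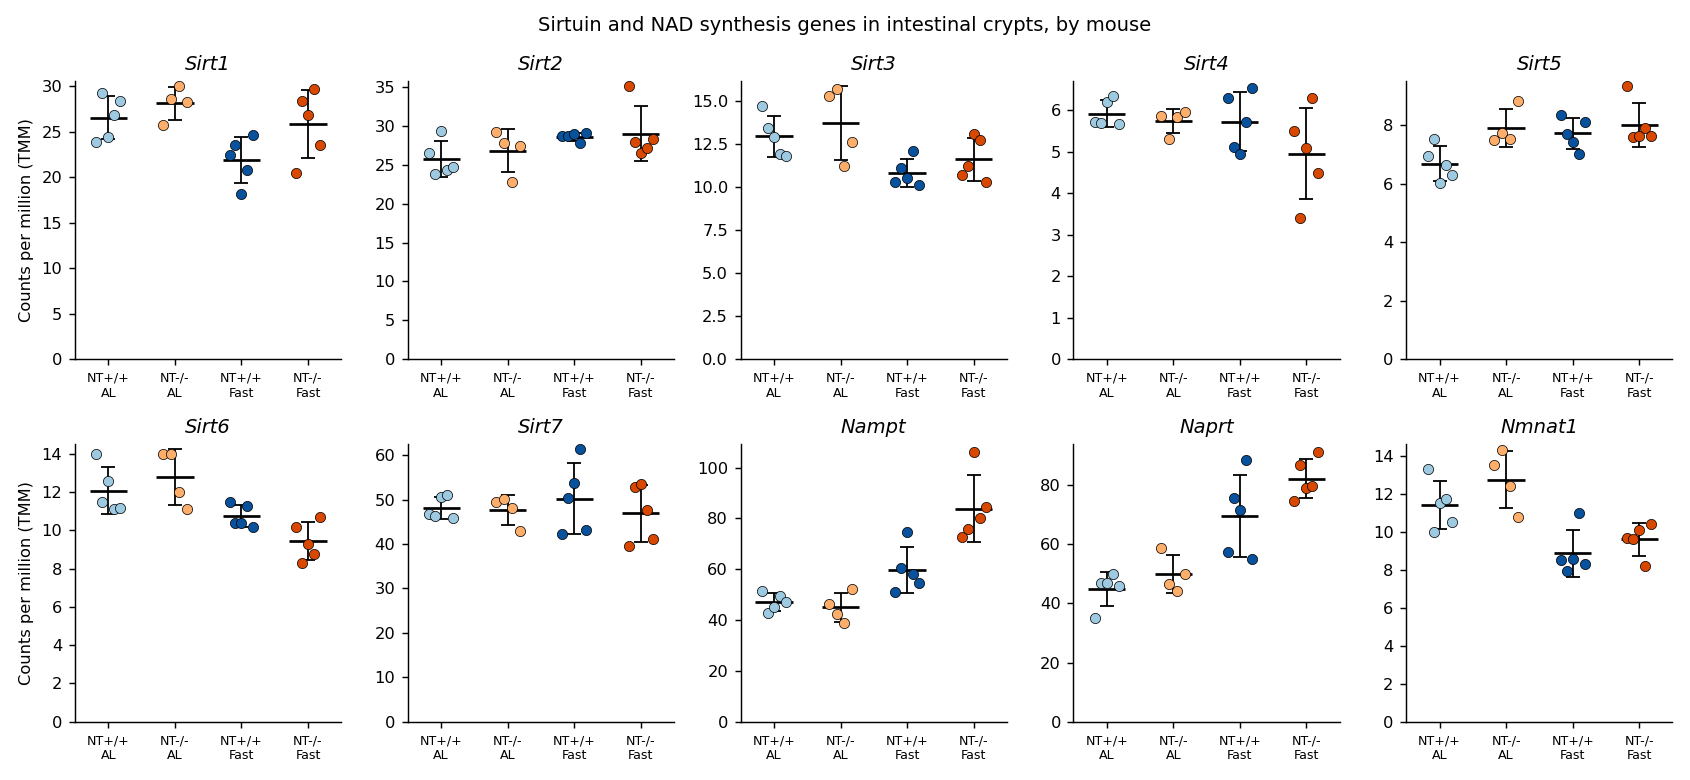
CPM of each gene by group, with 1 point per mouse, a bar at the mean and whiskers of 1 SD. The 5 NT-/- Fast mice had 72.7 to 106 CPM of Nampt, above all 9 fed mice, and the fasted mice of both genotypes had more Naprt than the fed mice of their genotype.

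Nampt rose with fasting in both genotypes, and 5 of its 6 highest values came from fasted NT-/- mice. In CPM, scaled by the trimmed mean of M values (TMM), Nampt measured 51.3, 42.6, 45.0, 49.3 and 46.9 in the NT+/+ AL mice and 50.9, 60.4, 74.5, 58.0 and 54.5 in the NT+/+ Fast mice. The ranges met only through NT+/+ Fast-1, which lay below the highest fed mouse. Fasting raised Nampt by 0.34 ± 0.11 (SE) on the log2 scale, or 1.27-fold, with an adjusted p of 0.0312. In mice without neurotensin, Nampt measured 46.3, 42.2, 39.0 and 52.3 CPM when fed and 72.7, 75.8, 106, 80.1 and 84.4 CPM when fasted. Every fasted mouse exceeded every fed mouse, and NT-/- Fast-3 was the highest of all 19. Here the rise was 0.90 ± 0.12 (SE) on the log2 scale, or 1.87-fold, with an adjusted p of 2.38e-05.

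The Nampt call in NT+/+ mice was narrow and that in NT-/- mice was not. In NT+/+ mice the adjusted p was 0.0283 without NT+/+ Fast-5, 0.0647 with that mouse counted as NT-/-, and up to 0.102 when a single mouse was left out, the highest value being without NT+/+ Fast-3. The call was also lost without NT+/+ AL-2 (adjusted p = 0.0745), NT+/+ AL-3 (0.0653), NT+/+ AL-5 (0.0563) or NT+/+ Fast-2 (0.0519). In NT-/- mice the adjusted p stayed at or below 0.000401 under every alternative run.

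Naprt rose by a similar amount in both genotypes. It measured 35, 46.9, 47.0, 49.9 and 46.0 CPM in NT+/+ AL mice and 57.2, 75.5, 71.5, 88.3 and 55.0 CPM in NT+/+ Fast mice, so the lowest fasted mouse was above the highest fed mouse. The rise in log2 CPM was 0.63 ± 0.12 (SE), or 1.55-fold, with an adjusted p of 0.00101. Without neurotensin, Naprt measured 58.7, 46.5, 44.1 and 49.9 CPM when fed and 74.4, 86.6, 79.0, 79.6 and 91.1 CPM when fasted, again without overlap. This was a rise of 0.72 ± 0.13 (SE) on the log2 scale, or 1.65-fold, with an adjusted p of 0.000456. Both calls held under every alternative run, with adjusted p no higher than 0.00731. Exons of Naprt overlap those of Eef1d, a translation elongation factor gene on the same strand, over 277 bases (11.82% of Naprt exon bases). Eef1d had medians of 89.1 and 80.4 CPM in fed and fasted NT+/+ mice and 88.9 and 71.9 CPM in fed and fasted NT-/- mice, and the part of shared reads in the Naprt values was not tested.

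Nmnat1 moved the other way. It measured 13.3, 10, 11.5, 11.7 and 10.5 CPM in NT+/+ AL mice and 8.52, 7.91, 8.59, 11.0 and 8.29 CPM in NT+/+ Fast mice, where NT+/+ Fast-4 alone reached into the fed range. The gene fell by 0.36 ± 0.11 (SE) on the log2 scale, with an adjusted p of 0.028. In NT-/- mice it measured 13.5, 14.3, 12.4 and 10.8 CPM when fed and 9.66, 9.64, 10.1, 8.19 and 10.4 CPM when fasted, with no overlap. It fell by 0.41 ± 0.12 (SE), with an adjusted p of 0.0181. With 83 to 459 counts a mouse, Nmnat1 was the least deeply counted of the 3 synthesis genes. The NT+/+ call was lost without any of 7 mice, among them NT+/+ AL-1 (adjusted p = 0.0837) and NT+/+ Fast-5 (0.0572), and the NT-/- call without NT-/- AL-1 (0.0535) or NT-/- AL-2 (0.0682), while the sign stayed negative throughout.

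Markers of villus enterocytes, the absorptive cells above the crypt, moved with Nampt and Naprt. The 6 markers (Alpi, Sis, Lct, Apoa4, Ada and Slc2a2) summed to 2337 to 4724 CPM in NT+/+ AL, 3518 to 5414 CPM in NT-/- AL, 3784 to 8010 CPM in NT+/+ Fast and 7443 to 10340 CPM in NT-/- Fast mice. All 6 had higher medians in fasted than in fed mice of both genotypes and in NT-/- Fast than in NT+/+ Fast mice, and in NT-/- mice all 6 were free of overlap between fed and fasted. Among NT+/+ Fast mice, replicates 1 and 5 had the lowest marker sums, 3784 and 4800 CPM, and also the lowest Nampt and Naprt. Among the fed mice, NT+/+ AL-1 had the lowest marker sum, 2337 CPM, together with the lowest Naprt and the second highest Nampt. Mki67, a gene of dividing cells, had medians of 843, 787, 613 and 495 CPM in NT+/+ AL, NT-/- AL, NT+/+ Fast and NT-/- Fast mice, and Olfm4, a stem cell marker, had medians of 1652, 1778, 1000 and 839 CPM. Lgr5, the defining stem cell marker, had medians of 26.9, 31.0, 34.5 and 29.3 CPM, and Lyz1, a Paneth cell gene, of 5859, 6722, 7043 and 6556 CPM in the same order. Of the 8 genes listed for crypt epithelium, 4 had higher medians in fasted than in fed NT+/+ mice and 1 in NT-/- mice. That 1 was Vil1, a general epithelial gene, with medians of 1306 CPM in NT-/- AL and 1750 CPM in NT-/- Fast mice. The part of these marker differences in the Nampt and Naprt results was not tested.

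**Figure D3:**
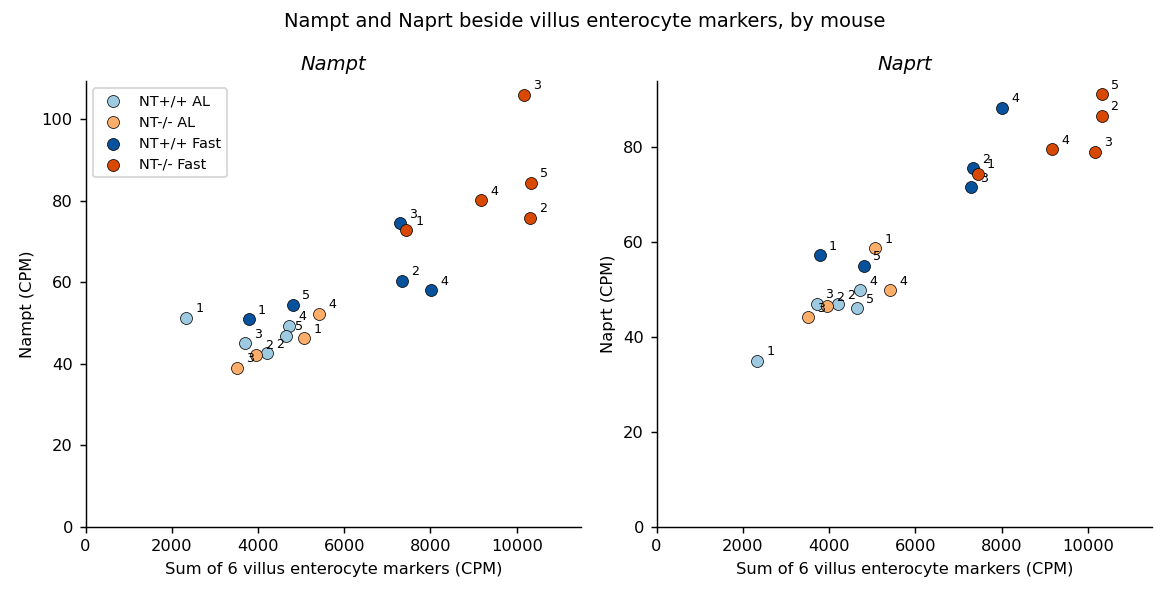
Nampt (left) and Naprt (right) in CPM against the summed CPM of 6 villus enterocyte markers, with 1 point per mouse numbered by replicate and colored by group. The NT-/- Fast mice had marker sums of 7443 to 10340 CPM, 4 of them above all other mice, and NT+/+ Fast mice 1 and 5 sat near the fed mice on both axes.

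Of the nuclear sirtuins, Sirt6 fell in fasted NT-/- mice. SIRT6 is a chromatin deacetylase that represses genes of glucose use. It measured 14.0, 14.0, 12.0 and 11.1 CPM in NT-/- AL mice and 10.2, 8.28, 9.31, 8.78 and 10.7 CPM in NT-/- Fast mice, where every fasted mouse lay below every fed mouse. The gene fell by 0.43 ± 0.11 (SE) on the log2 scale, with an adjusted p of 0.00571 and of at most 0.0328 under the alternatives. In NT+/+ mice it measured 14.0, 11.5, 12.6, 11.1 and 11.2 CPM when fed and 11.5, 10.4, 10.4, 11.3 and 10.2 CPM when fasted. These ranges overlapped, and the log2 fold change of -0.17 ± 0.10 (SE) had an adjusted p of 0.263. The difference between the genotypes in the fasting effect was -0.27 ± 0.15 (SE), with an unadjusted p of 0.0861 and an adjusted p of 1.0, so the effects were not shown to differ.

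Sirt1, a nuclear deacetylase of histones and transcription factors, lay at the edge of the threshold in NT+/+ mice. It measured 23.9, 29.3, 24.4, 26.8 and 28.4 CPM when fed and 22.4, 23.5, 18.2, 20.8 and 24.6 CPM when fasted. The highest fasted mouse passed the lowest fed mice, but within each of the 5 same-numbered pairs the fasted mouse was lower. The log2 fold change was -0.28 ± 0.10 (SE), with an adjusted p of 0.0563. With the replicate number as a block, which is apt here because all 5 same-numbered pairs of these groups deviated together, the value was again -0.28 and the adjusted p was 0.0349 (28.0% of all genes were called in that fit, and 31.7% with fasting in NT-/- mice). Blocking on the file-name number gave 0.0238 (30.7% of all genes), and DESeq2 gave 0.0426 (23.3%). Without NT+/+ Fast-5 the adjusted p was 0.0357, and over the single mice left out it ran from 0.0334 to 0.143. It was under 0.05 in 3 of these 19 fits. Sirt1 in NT-/- mice measured 25.7, 28.6, 30.0 and 28.3 CPM when fed and 20.5, 28.4, 26.9, 29.7 and 23.6 CPM when fasted, and the log2 fold change of -0.13 ± 0.11 (SE) had an adjusted p of 0.42.

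Sirt7, a nucleolar and chromatin deacetylase, gave no call. Its values ran from 45.9 to 51.1 CPM in NT+/+ AL, 42.9 to 50.2 in NT-/- AL, 42.2 to 61.5 in NT+/+ Fast and 39.6 to 53.6 in NT-/- Fast mice. The fasted groups were wider than the fed groups and enclosed them. The log2 fold change with fasting lay between -0.14 and 0.27 in NT+/+ and between -0.24 and 0.19 in NT-/- mice, taking 2 SE on each side.

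Sirt2, the tubulin deacetylase of the cytoplasm, also gave no call. Its values were 23.8 to 29.4 CPM in NT+/+ AL, 22.8 to 29.2 in NT-/- AL, 27.8 to 29.1 in NT+/+ Fast and 26.5 to 35.2 in NT-/- Fast mice. 4 of the 5 NT+/+ Fast mice exceeded their same-numbered fed mouse, and the log2 fold change was 0.15 ± 0.09 (SE) with an adjusted p of 0.22 in NT+/+ and 0.12 ± 0.09 (SE) with an adjusted p of 0.39 in NT-/- mice.

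None of the 3 mitochondrial sirtuins passed the test with fasting, where 21.6% of all genes passed in NT+/+ and 25.1% in NT-/- mice. Sirt3, the main mitochondrial deacetylase, measured 14.7, 13.4, 12.9, 11.9 and 11.8 CPM in NT+/+ AL and 10.3, 11.1, 10.5, 12.1 and 10.1 CPM in NT+/+ Fast mice. Only NT+/+ Fast-4 reached the fed range, yet the log2 fold change of -0.26 ± 0.11 (SE) had an adjusted p of 0.0892. In NT-/- mice Sirt3 measured 15.3, 15.7, 11.2 and 12.6 CPM when fed and 10.7, 11.2, 13.1, 12.7 and 10.3 CPM when fasted, with a log2 fold change of -0.24 ± 0.11 (SE) and an adjusted p of 0.133. Sirt3 shares 418 exon bases with Ric8a and 342 with Psmd13 on the opposite strand. Whether the counting used strand is not given in the sources used here, so reads of these genes may not be told apart. Ric8a, a chaperone of G protein subunits, had medians of 42.5 and 46.8 CPM in fed and fasted NT+/+ mice, and Psmd13, a proteasome subunit, had medians of 57.8 and 47.1 CPM.

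Sirt4, a mitochondrial lipoamidase and ADP-ribosyltransferase, was the shallowest member with 30 to 199 counts a mouse. It measured 5.66 to 6.34 CPM in NT+/+ AL, 5.3 to 5.97 in NT-/- AL, 4.94 to 6.55 in NT+/+ Fast and 3.4 to 6.31 CPM in NT-/- Fast mice. The log2 fold change with fasting was -0.05 ± 0.14 (SE) with an adjusted p of 0.846 in NT+/+ mice and -0.21 ± 0.14 (SE) with an adjusted p of 0.327 in NT-/- mice. Sirt5, the mitochondrial desuccinylase, measured 6.96, 7.52, 6.01, 6.65 and 6.28 CPM in NT+/+ AL and 8.34, 7.71, 7.41, 7.02 and 8.12 CPM in NT+/+ Fast mice. The fasted mouse was higher in 5 of 5 same-numbered pairs, and the log2 fold change of 0.21 ± 0.10 (SE) had an adjusted p of 0.16. Sirt5 in NT-/- mice measured 7.49, 7.74, 7.51 and 8.84 CPM when fed and 9.34, 7.6, 7.63, 7.89 and 7.61 CPM when fasted, with a log2 fold change of 0.02 ± 0.11 (SE).

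**Figure D4:**
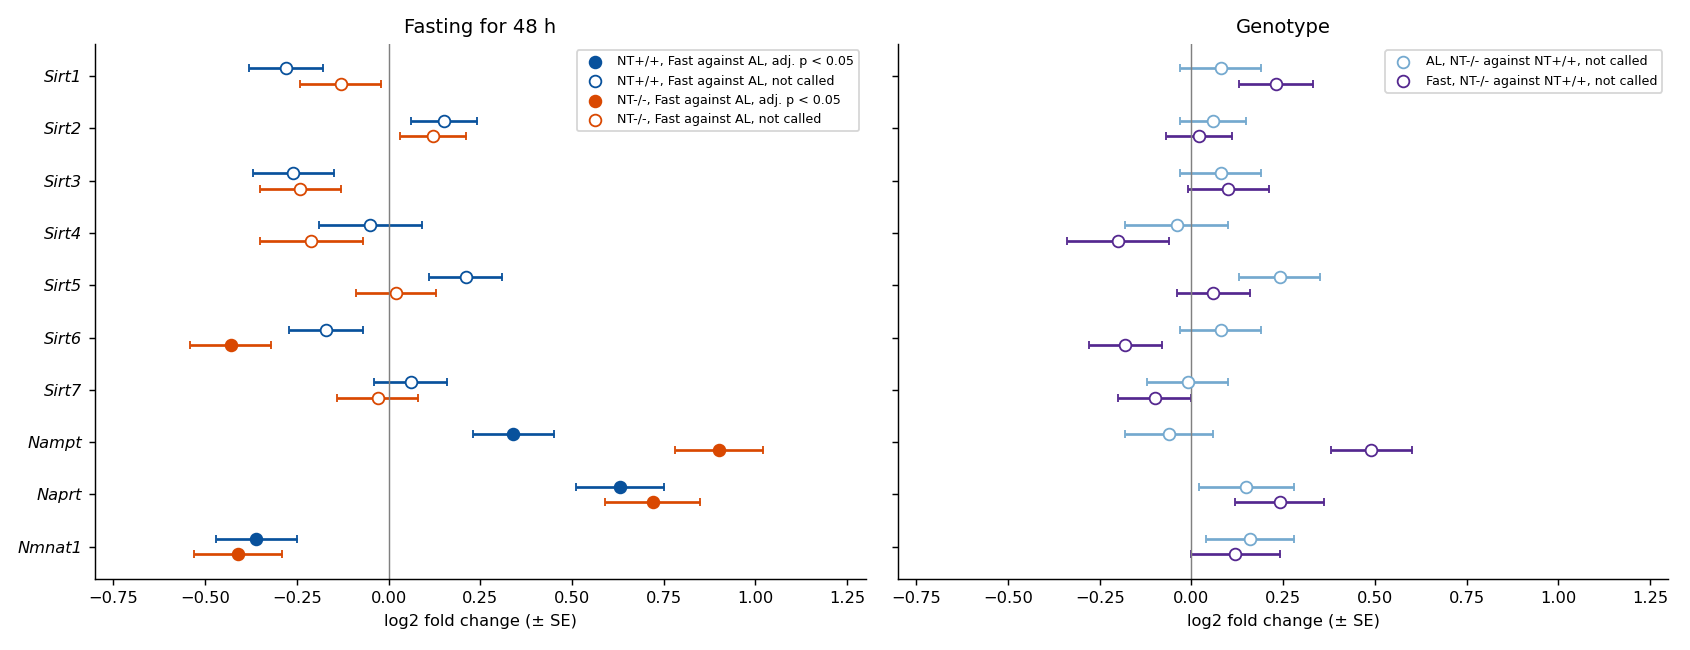
Log2 fold changes of the 10 genes with bars of 1 SE, for fasting in each genotype (left) and for NT-/- against NT+/+ mice in each feeding state (right). Filled points have an adjusted p under 0.05: Nampt, Naprt and Nmnat1 in both genotypes and Sirt6 in NT-/- mice on the left, and none on the right.

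Loss of neurotensin gave no call among the 10 genes in fed mice. edgeR called 0 of them (0.00559% of all genes, which is Nts alone), 1 at an unadjusted p under 0.05 (1.67% of all genes), and DESeq2 called 0 (0.0168%). The gene at an unadjusted p under 0.05 was Sirt5, which was higher in NT-/- AL mice by 0.24 ± 0.11 (SE) on the log2 scale. Its 7.49 to 8.84 CPM in NT-/- AL mice overlapped the 6.01 to 7.52 CPM of NT+/+ AL mice through NT+/+ AL-2, which lay above 2 of the NT-/- AL mice. Over the 10 genes the log2 fold changes ran from -0.06 for Nampt to 0.24 for Sirt5.

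In fasted mice Nampt stood apart from the other members, but not past the adjusted threshold of edgeR. The 5 NT-/- Fast mice (72.7 to 106 CPM) lay above 4 of the 5 NT+/+ Fast mice, and NT+/+ Fast-3 with 74.5 CPM fell between the lowest and the next. The fasted genotypes overlapped for all 10 genes (1.56% of all genes did not). NT-/- mice were higher in 5 of 5 same-numbered pairs, by 0.33 to 0.63 on the log2 scale. The log2 fold change was 0.49 ± 0.11 (SE), or 1.41-fold, with an unadjusted p of 0.000259 and an adjusted p of 0.185. DESeq2 gave 0.50 with an adjusted p of 0.0084 and called 1 of the 10 genes (0.548% of all genes). With the replicate number as a block, all 5 pairs of these groups having deviated together, edgeR's adjusted p was 0.0886, and with the file-name number it was 0.0577. It was 0.398 without NT+/+ Fast-5 and 0.79 with that mouse counted as NT-/-. Sirt1 was the other member at an unadjusted p under 0.05 (9.14% of all genes), with 0.23 ± 0.10 (SE), an unadjusted p of 0.0345 and an adjusted p of 0.489.

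The fasting effect on Nampt was 0.34 in NT+/+ and 0.90 in NT-/- mice, and the difference of 0.56 ± 0.16 (SE) had an unadjusted p of 0.00262 and an adjusted p of 1.0. edgeR called 0 of all genes (0.0%) for a difference between genotypes in the effect of fasting, with 2.7% at an unadjusted p under 0.05, and DESeq2 called 0. Nampt was the only one of the 10 at an unadjusted p under 0.05. The other differences ran from -0.27 for Sirt6 to 0.15 for Sirt1, with standard errors of 0.13 to 0.20. The comparisons share their groups, so the fasting effects and the genotype differences are not independent of each other.

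Beyond the 10 genes, 42 other genes of NAD metabolism were listed and 35 could be tested. With fasting 13 passed in NT+/+ mice, 11 higher and 2 lower, where 21.6% of all genes passed, and 17 passed in NT-/- mice, 14 higher and 3 lower, where 25.1% passed. Their median log2 fold change was 0.16 in NT+/+ and 0.27 in NT-/- mice, against -0.01 and -0.02 over all genes. With at least 10 counts in every mouse the medians were 0.09 and 0.07 over 29 tested genes. Then 7 were higher and 2 lower in NT+/+, and 10 higher and 3 lower in NT-/- mice. In that fit 3795 and 4358 of 13806 genes passed. Without a filter the medians were 0.17 and 0.06. Qprt, Nmnat2 and Slc22a13 passed the main filter only through fasted mice, so their counting as risen was partly set by the filter. Between genotypes 0 passed in edgeR in either feeding state (0.00559% of all genes in each). At an unadjusted p under 0.05 in edgeR were 2 of 35 in fed mice (1.67% of all genes) and 5 of 35 in fasted mice (9.14%). DESeq2 called 0 of them in fed mice (0.0168% of all genes) and 2 in fasted mice (0.548%).

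In the route from tryptophan, 3 of 6 tested genes rose in both genotypes, where 11.2% of all genes were called higher in NT+/+ and 12.5% in NT-/- mice. Afmid, which makes kynurenine, rose by 0.54 ± 0.18 (SE) with an adjusted p of 0.0363 in NT+/+ and by 0.54 ± 0.19 (SE) with 0.0443 in NT-/- mice. Kmo, kynurenine monooxygenase, rose by 0.99 ± 0.32 (SE) and 1.63 ± 0.34 (SE), from 8 to 21 counts a fed mouse to 12 to 41 counts a fasted mouse. Qprt, which commits quinolinate to NAD, was barely detected with 0 to 8 counts a fed mouse and 6 to 15 a fasted mouse. Qprt entered the test only through fasted mice, and it passed in both genotypes with adjusted p of 0.000804 and 0.00199. Tdo2, Ido1 and Haao did not pass, and Ido2, Kynu and Acmsd were too low to test.

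Of the other synthesis genes, the relatives of Nmnat1 rose where Nmnat1 fell. Nmnat3, whose enzyme has been placed in mitochondria, had medians of 13.7 and 17.9 CPM in fed and fasted NT+/+ mice and 12.8 and 21.7 CPM in fed and fasted NT-/- mice. It rose by 0.51 ± 0.12 (SE) with an adjusted p of 0.00503 and by 0.66 ± 0.13 (SE) with an adjusted p of 0.000952, and neither genotype had overlap. Nmnat2, at 2 to 9 counts a fed mouse and 6 to 36 a fasted mouse, entered the test only through fasted mice. It also passed in both, with adjusted p of 0.000572 and 0.00105. Nadsyn1, the NAD synthetase of the nicotinic acid route that NAPRT opens, did not pass, at -0.06 ± 0.06 (SE) and -0.11 ± 0.06 (SE). Nmrk1, the nicotinamide riboside kinase, measured 0.22 ± 0.15 (SE) and 0.44 ± 0.17 (SE) and did not pass. Pnp, a phosphorylase that also splits nicotinamide riboside, fell by 0.21 ± 0.07 (SE) in NT+/+ mice with an adjusted p of 0.0386 and measured -0.02 ± 0.08 (SE) in NT-/- mice.

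The enzymes that spend NAD moved in both directions. Cd38, the main NAD glycohydrolase, fell by 0.39 ± 0.09 (SE) with an adjusted p of 0.00365 in NT+/+ and by 0.42 ± 0.09 (SE) with 0.00292 in NT-/- mice. Its relative Bst1 rose by 0.98 ± 0.30 (SE) with an adjusted p of 0.0258 and by 1.42 ± 0.33 (SE) with 0.00344. Parp1, the main poly(ADP-ribose) polymerase, fell by 0.36 ± 0.09 (SE) in NT-/- mice with an adjusted p of 0.00587 and measured -0.17 ± 0.09 (SE) in NT+/+ mice with 0.176. Tnks, tankyrase, rose by 0.37 ± 0.07 (SE) in NT-/- mice with an adjusted p of 0.000813 and measured 0.16 ± 0.07 (SE) with 0.0886 in NT+/+ mice. Parp3 rose in NT-/- mice by 0.68 ± 0.22 (SE) with an adjusted p of 0.0312 and measured 0.19 ± 0.21 (SE) in NT+/+ mice. For none of these was a difference between the genotypes in the fasting effect called, the adjusted p being 1.0 for Tnks with an unadjusted p of 0.0462.

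Of the 5 transport genes, 3 rose in NT+/+ mice, where 11.2% of all genes were called higher. In NT-/- mice 4 rose and 1 fell, where 12.5% of all genes were called higher and 12.6% lower. Of the 5 genes of NAD breakdown and repair, 1 rose in NT+/+ and 2 in NT-/- mice, beside the same shares of all genes, and so short a list does not set them apart. Slc25a51, the mitochondrial NAD carrier, rose by 0.31 ± 0.07 (SE) and 0.38 ± 0.07 (SE) with adjusted p of 0.00245 and 0.00067. Nt5e, the ectonucleotidase CD73, rose by 1.31 ± 0.33 (SE) and 1.87 ± 0.36 (SE) with adjusted p of 0.00743 and 0.000862, and its NT+/+ Fast values of 17.2 to 110 CPM were the widest of the list. Slc22a13, a nicotinate transporter, had 3 counts in all 5 NT+/+ AL mice together and 71 in the NT+/+ Fast mice, 26 in the NT-/- AL and 82 in the NT-/- Fast mice. Slc22a13, counted among the risen genes, entered the test only through fasted mice. Slc5a8, which also carries nicotinate, rose by 1.08 ± 0.30 (SE) and Slc12a8, reported as a carrier of nicotinamide mononucleotide, fell by 0.49 ± 0.17 (SE) in NT-/- mice, with adjusted p of 0.0123 and 0.0434, and in NT+/+ mice they measured 0.43 ± 0.28 (SE) and -0.33 ± 0.16 (SE). Enpp1, an ectonucleotide pyrophosphatase, rose by 0.47 ± 0.09 (SE) and 0.44 ± 0.10 (SE) with adjusted p of 0.00151 and 0.00335, and Nudt12, an NADH pyrophosphatase, rose by 0.33 ± 0.11 (SE) in NT-/- mice with an adjusted p of 0.035 and measured 0.24 ± 0.10 (SE) in NT+/+ mice.

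Of the genes of NADP synthesis and of the control of SIRT1, Nnt alone passed the main fit with fasting, in NT+/+ mice. Over all genes 21.6% passed in NT+/+ and 25.1% in NT-/- mice, so lists this short are not set apart. Nadk, the cytoplasmic NAD kinase, measured -0.02 ± 0.08 (SE) and -0.10 ± 0.09 (SE), and none of the 3 regulators of SIRT1 (Ccar2, Rps19bp1 and Hic1) passed in either genotype. Nnt, the mitochondrial transhydrogenase, rose by 0.76 ± 0.21 (SE) in NT+/+ mice with an adjusted p of 0.0137. In NT-/- mice its fasting effect was -0.02 ± 0.23 (SE). Between the fasted groups, NT-/- against NT+/+, Nnt measured -1.06 ± 0.21 (SE), without overlap. There edgeR gave an unadjusted p of 8.34e-05 and an adjusted p of 0.162, and DESeq2 an adjusted p of 0.00356. But Nnt is listed under 2 gene IDs between which reads can be split, so these values are uncertain. The second ID had medians of 49.5 and 70.1 CPM in fed and fasted NT+/+ mice and 35.3 CPM in both NT-/- groups. Nnmt, which methylates nicotinamide for excretion, had 2 counts over all 19 mice, both in the NT+/+ Fast group, and with Aox1 it was too low to test.

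**Figure D5:**
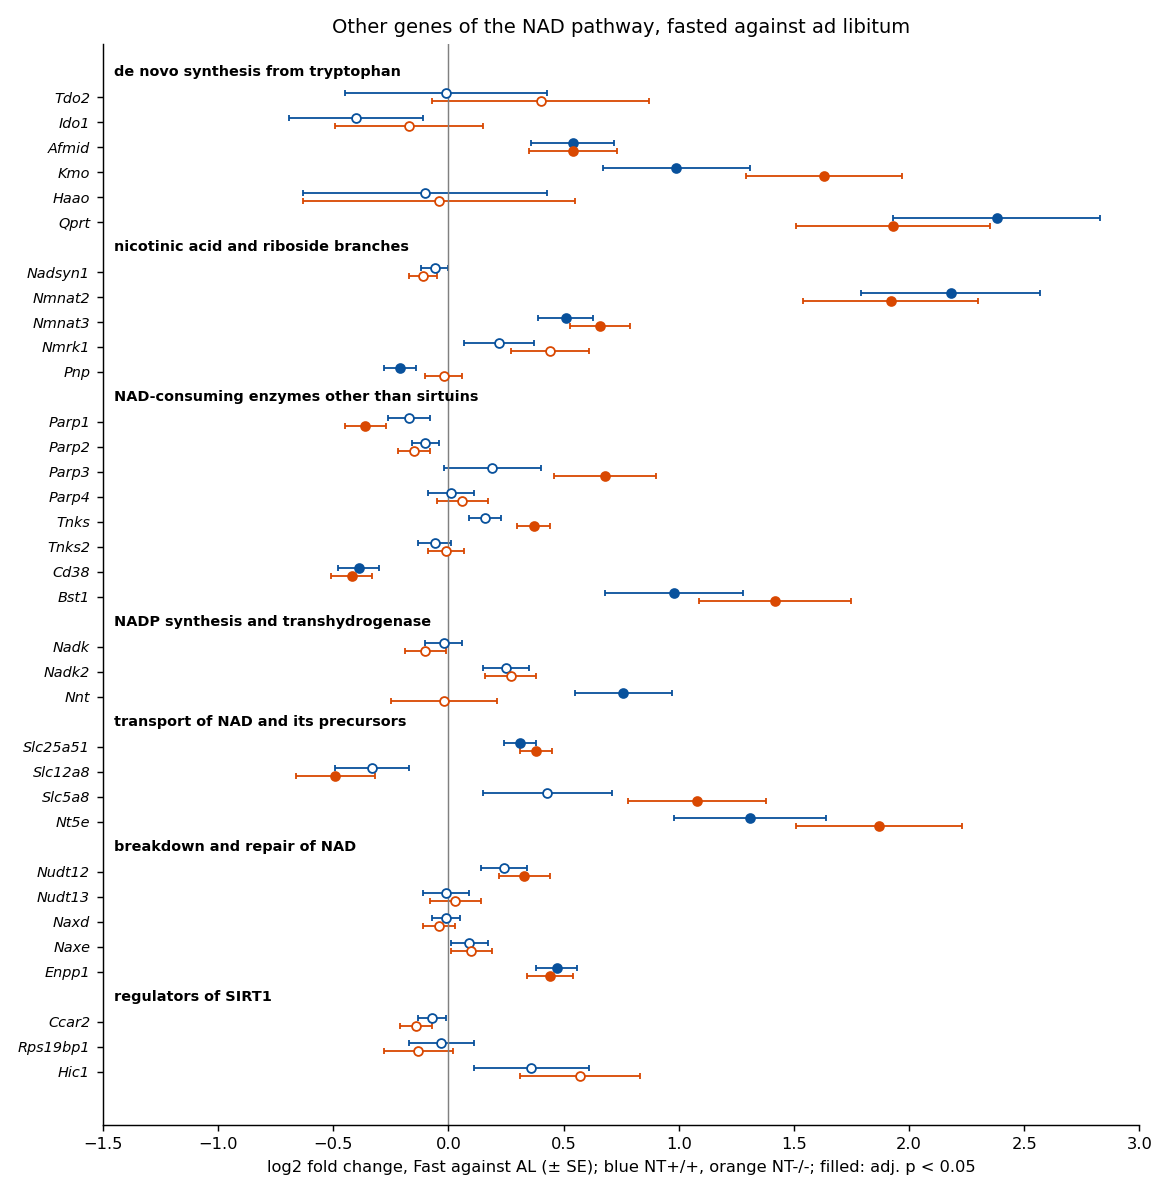
Log2 fold change with fasting and 1 SE for 34 of the 35 tested genes of NAD metabolism outside the 10, by list, with NT+/+ in blue, NT-/- in orange and filled points for an adjusted p under 0.05. Slc22a13, with 3 counts in all NT+/+ AL mice, is left out, and Nmnat3, Slc25a51, Enpp1, Nt5e, Bst1 and Afmid lay to the right of 0 and Cd38 to the left in both genotypes.

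The genes whose pattern over the 19 mice was most like that of Nampt were Slc25a5, Atl2, Glud1, Sar1b and Slc35g1, with Pearson r of log2 CPM of 0.948, 0.939, 0.932, 0.928 and 0.925 among 9957 genes searched. Those most like Sirt1 were Dcaf17, Nae1, Orc4, Slf1 and Ythdc1, with r of 0.93, 0.917, 0.908, 0.893 and 0.884. These correlations join fed and fasted mice and are given as descriptions. Slc25a5 had medians of 616 CPM in NT+/+ AL and 846 CPM in NT-/- Fast mice and Glud1 of 307 and 639 CPM, while Dcaf17 had medians of 32.3 and 31.0 CPM.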

How the data were processed

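Crypt RNA of 19 mice, depleted of ribosomal RNA, was sequenced in single reads, which the authors trimmed with Trimmomatic 0.39 and quantified with RSEM on Ensembl GRCm38 release 100. The deposited values are estimated counts, not normalized, and TPM per gene, which RSEM scales for length and depth. Whether counting used strand is not given in the sources used here. The estimated counts were rounded, genes were kept by filterByExpr, and edgeR 4.0.16 in R 4.3.3 (TMM, quasi-likelihood, 1 fit over the 4 groups, 15 residual degrees of freedom) tested 5 comparisons with Benjamini-Hochberg adjustment over 17877 genes at 0.05. The fit was tested on simulated data. Group mean and SD are over mice, and p-values set a difference between groups against the spread between mice, as the fit estimated it over all 4 groups. Alternatives were no filter or a minimum of 10 counts per mouse, DESeq2 1.42.0, scaling by the upper quartile, replicate blocks, sex (leaving out the mouse with no sex label), regrouping, the groups compared alone, and each mouse left out. The main fit had no block, so its p-values do not use a pairing, and fits with a block are given beside it. Same-numbered mice were judged to be alike where every pair deviated together (r of their deviations from group means over 0.1). By title number this held in 5 of 5 pairs between NT+/+ AL and NT+/+ Fast (0.165 to 0.499) and between the fasted groups (0.124 to 0.453), but in 2 of 4 pairs in each of the other comparisons. By the number in the file names, which differs for 2 NT-/- AL mice, it also held there, in 4 of 4 pairs of NT-/- AL and NT-/- Fast (0.123 to 0.379) and of the fed groups (0.117 to 0.342). All members were named, with other NAD pathway genes past an adjusted p of 0.05 in any comparison plus Nadsyn1, Nmrk1, Qprt, Parp1, Cd38, Nadk and Nnmt whatever their values, and for Nampt and Sirt1 the 5 genes of highest Pearson r with an average log2 CPM of at least 3. The members and lists were chosen with earlier results of these data known. Symbols were matched by ID for 55227 of 55487 genes.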

Additional observations from a re-analysis of the deposited data

Results flagged for a closer look

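Among the 40 combinations of a member and a group, 5 had a mouse set apart from the rest of its group by Dixon's criterion, which chance meets in about 1 in 20 groups. NT-/- Fast-1 was the highest of its group for Sirt2, at 35.2 CPM with the next mouse at 28.3, and for Sirt5, at 9.34 CPM with the next at 7.89. NT+/+ Fast-4 was the lowest of its group for Sirt2, at 27.8 CPM against 28.7, in a group whose values span little, and the highest for Nmnat1, at 11.0 CPM against 8.59. NT+/+ AL-1 was the lowest of its group for Naprt, at 35 CPM against 46.0, and it is also the mouse in which CT010467.1 took 11.55% of the counts. Without that mouse Naprt was still called in NT+/+ mice.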

How the results depend on the processing

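Among 1390 alternative values of the members' log2 fold changes, 1337 kept their direction and side of the threshold, 8 newly passed, 19 no longer passed and 26 changed sign, none of which passed the test with either sign. 80 of 80 group levels stayed within 1 SD. The fold changes that changed sign were near 0. With the mouse of disagreeing labels as NT-/-, the genotype difference in the fasting effect was -0.03 for Sirt3 (from 0.02) and -0.07 for Naprt (from 0.09). Sirt7 with fasting in NT-/- mice was 0.02 with sex as a covariate and 0.0 with the replicate block of the titles (from -0.03), and between fed genotypes it was 0.02 with the file-name replicate block (from -0.01). With a mouse left out, the genotype difference in the fasting effect ran from -0.12 to 0.01 for Sirt2, -0.06 to 0.09 for Sirt3 and -0.11 to 0.05 for Nmnat1. Fasting in NT+/+ mice ran from -0.1 to 0.0 for Sirt4 and -0.02 to 0.12 for Sirt7, and in NT-/- mice from -0.04 to 0.08 for Sirt5 and -0.08 to 0.03 for Sirt7. NT-/- against NT+/+ ran from -0.06 to 0.05 for Sirt2 and -0.01 to 0.09 for Sirt5 in fasted mice, and from -0.04 to 0.04 for Sirt7 in fed mice.

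Without the filter on low counts 1 member instead of 3 passed with fasting in NT+/+ mice, beside 3077 of 34635 genes. The adjusted p of Nampt became 0.0538 there and that of Nmnat1 0.0713. With a mouse left out, 1 to 4 members passed in NT+/+ mice (1 without NT+/+ AL-3, NT+/+ Fast-2 or NT+/+ Fast-3) and 3 to 4 in NT-/- mice. Other NAD genes passed 9 to 13 times in NT+/+ and 13 to 17 times in NT-/- mice with a mouse left out. In a fit of only the groups compared, 7 of 31 tested passed in NT+/+ mice, near the 3362 of 16669 over all genes. In NT-/- mice 15 of 34 passed in such a fit, beside 3987 of 16967 over all genes. DESeq2 called 1 member (Nampt) and 2 other NAD genes (Tnks and Nnt) between genotypes in fasted mice (0.548% of all genes). There edgeR called 0, and the cause was not tested. Leaving out a mouse gave 0 calls for both genotype comparisons and their difference. With the replicate block of the titles, 4 members passed in each genotype with fasting, the addition being Sirt1 in NT+/+ mice, and no other member's call changed. 15 other NAD genes then passed in NT+/+ mice (28.0% of all genes) and 17 in NT-/- mice (31.7%). With the file-name numbers as the replicate block, the counts were 4 members in each genotype, and 16 and 20 other genes (30.7% and 31.7% of all genes). Sirt4, with 30 counts in the shallowest mouse, has the widest error of the members.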
